A study of Mus musculus with 6 samples.

Results

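The expression of p53 and a set of its target genes was compared between mammary tumors that lacked or carried junctional adhesion molecule A (JAM-A, encoded by F11r), a tight junction protein of epithelial cells. The set held 10 genes, Trp53 and the targets Mdm2, Cdkn1a, Plk2, Perp, Ccng1, Sesn1, Sesn2, Zmat3 and Btg2. These are textbook members of the p53 response and were chosen with earlier results of these data known. Each gene was read from 1 probe set that the array annotation pairs with that gene alone. Of the 10 genes, 8 could be read in this way, out of 19938 genes in all. No probe set was listed for Trp53, and the only probe set of Cdkn1a was listed with more than 1 symbol, so that p53 itself and p21 were not analysed here. Of the measured genes, Mdm2, Perp and Sesn1 lie on mouse chromosome 10, Ccng1 on 11, Plk2 on 13, Zmat3 on 3, Sesn2 on 4 and Btg2 on 1.

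The 6 tumors came from MMTV-PyMT mice, in which the mouse mammary tumor virus promoter drives the polyoma middle T oncogene in mammary epithelium, and were resected early in tumor development. A group of 3 tumors (5333, 5346 and 5347) was MMTV-PyMT JAM-A KO, here JAM-A-/-, and the other 3 (5369, 5370 and 5393) were MMTV-PyMT with intact JAM-A, here JAM-A+/+. The labels give no age and do not say whether the tumors came from separate mice, so p-values measure the spread between these tumors only. RNA of each whole tumor was hybridized to 1 Affymetrix array, and levels are log2 values, on which a difference of 1 is a doubling. In whole tumors, fewer cells of a type and less RNA per cell cannot be told apart.

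p53 is a transcription factor that is kept low by the ubiquitin ligase Mdm2 and is stabilized after DNA damage, oncogene activity and other stress. It then binds response elements near its targets, whose products halt the cell cycle, repair DNA, adjust metabolism, start apoptosis or, in the case of Mdm2, shut p53 down again. In epithelial tumors the targets are often read as a group, although several of them also answer to other factors, and Trp53 mRNA itself is a poor guide to p53 activity because p53 is controlled mainly as a protein.

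The stretches of 250 bases before the annotated transcription start show which of the targets hold recognizable letters for p53 or for other factors close to the start. RefSeq sequences on GRCm38.p6 were found for 8 of the 10 genes, with Perp and Zmat3 not matched. The p53 half-site consensus (the unit that is repeated in a p53 response element, searched on both strands) was present in 7.13% of all 32851 mouse promoters of this length. Among the measured targets it was found in the Mdm2 promoter (chr10:117710759-117711008, minus strand), the Ccng1 promoter (chr11:40755287-40755536, minus strand) and the downstream of the Sesn1 promoters (chr10:41887189-41887438, plus strand). The cyclic AMP response element TGACGTCA, which is also its own reverse complement, was present in 1.55% of all promoters and was found for Plk2 (chr13:110394794-110395043, plus strand) and Btg2 (chr1:134079156-134079405, minus strand). The CArG box of serum response factor, present in 1.47% of all promoters, was not among the letters of the members' windows. The 5 promoters with a match in a measured target are written 5′ to 3′, with the matched letters in capitals, and no match overlapped another.
Mdm2: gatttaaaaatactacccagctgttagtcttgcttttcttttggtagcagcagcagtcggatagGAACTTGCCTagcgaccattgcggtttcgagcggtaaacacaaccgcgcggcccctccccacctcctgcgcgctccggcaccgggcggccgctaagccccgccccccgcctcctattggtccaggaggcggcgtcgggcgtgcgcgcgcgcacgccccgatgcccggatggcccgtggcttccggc
Ccng1: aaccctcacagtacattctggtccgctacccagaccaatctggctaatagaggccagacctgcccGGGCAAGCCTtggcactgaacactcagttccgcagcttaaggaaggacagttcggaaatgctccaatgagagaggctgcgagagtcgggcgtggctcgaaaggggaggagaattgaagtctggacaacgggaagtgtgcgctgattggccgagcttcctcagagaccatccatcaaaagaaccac
Sesn1, downstream promoter: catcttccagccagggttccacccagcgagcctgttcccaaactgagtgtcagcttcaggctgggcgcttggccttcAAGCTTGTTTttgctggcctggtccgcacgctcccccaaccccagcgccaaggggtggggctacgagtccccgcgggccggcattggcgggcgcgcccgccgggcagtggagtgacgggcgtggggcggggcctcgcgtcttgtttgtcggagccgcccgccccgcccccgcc
Plk2: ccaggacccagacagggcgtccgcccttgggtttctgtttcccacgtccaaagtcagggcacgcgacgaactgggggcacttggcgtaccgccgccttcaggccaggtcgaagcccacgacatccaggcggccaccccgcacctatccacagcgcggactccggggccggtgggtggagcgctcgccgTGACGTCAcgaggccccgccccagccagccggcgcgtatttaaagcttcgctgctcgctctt
Btg2: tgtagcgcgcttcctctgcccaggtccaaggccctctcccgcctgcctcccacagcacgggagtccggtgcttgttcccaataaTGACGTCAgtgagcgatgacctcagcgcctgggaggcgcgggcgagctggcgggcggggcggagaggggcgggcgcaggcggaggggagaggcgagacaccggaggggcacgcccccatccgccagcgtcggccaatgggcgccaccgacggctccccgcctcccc

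Counted back from the base before the start, the first base of the half-site lay at -186 in Mdm2, at -185 in Ccng1 and at -173 in Sesn1. The cyclic AMP response element began much closer to the start in Plk2, at -62, than in Btg2, at -166. A match describes the letters in this window and is not a binding site, and elements in introns or farther upstream, where many p53 sites lie, were not searched.

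The targeted gene was read first. F11r was at 5.91, 5.55 and 6.53 in the JAM-A-/- tumors and at 10.1, 10.23 and 10.47 in the JAM-A+/+ tumors, a difference of -4.27 (limma, SE 0.24, adjusted p = 0.00667). The tissue label of tumor 5347 does not repeat the absence of JAM-A that its genotype label gives, and its F11r level of 6.53 was with those of the other JAM-A-/- tumors. It was the only 1 of 35557 probe sets (0.00281%) to pass an adjusted p of 0.05, so that no p53 target passed this threshold, and the weaker criteria of a fold of at least 1.3 with an unadjusted p under 0.05 were used to count genes. The luminal epithelium markers Krt8, Krt18, Krt19, Epcam and Cdh1 averaged between 11.47 and 12.05 in the JAM-A-/- tumors and between 11.37 and 11.71 in the JAM-A+/+ tumors, and none of the 5 met the criteria with all tumors, while 2 did without 5333 and 1 without 5370. Correlations between arrays were 0.986 to 0.991 within a genotype and 0.979 to 0.989 between genotypes. The arrays also carried a general shift: 14307 of all genes (71.8%) were above 0 in JAM-A-/- minus JAM-A+/+, with a median of 0.09, and the differences of the targets are therefore also given relative to it.

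All 8 measured p53 targets had a higher mean in the JAM-A-/- tumors, except that Btg2 fell below 0 after either quantile normalization, after centering on named genes, with tumors weighted by quality and without tumor 5369 (-0.06). The median difference was 0.22, or 0.13 above the median of all genes. Relative to the median of all genes, the differences of Perp, Sesn1, Sesn2, Ccng1 and Zmat3 were 0.43, 0.20, 0.15, 0.11 and 0.08. Plk2 and Perp met the fold and p criteria as higher, which makes 2 of 8 against a background of 4.73% of all genes, and 0 of 8 were lower, against 0.592%. Plk2, Perp and Sesn1 were higher in every JAM-A-/- tumor than in every JAM-A+/+ tumor, 3 of 8 against a background of 12.4%, and none of the 8 was lower in this way, against 2.55%. The other 5 targets had overlapping groups. Because the 8 genes were chosen with earlier results of these data known, these counts do not test the set. With 3 tumors a group the exact two-sided permutation test cannot go below 0.1, which it reached for Plk2, Perp and Sesn1.

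**Figure D1:**
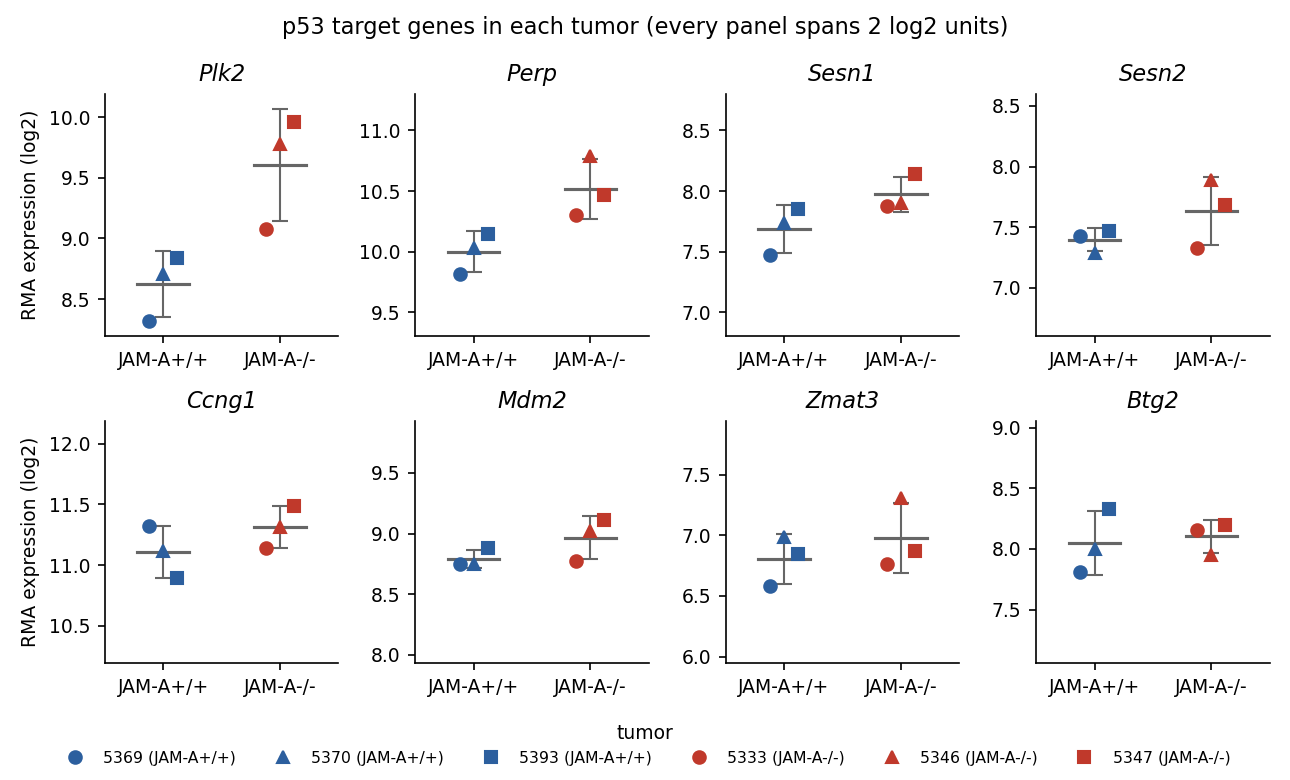
Level of the 8 measured p53 targets (log2 value, vertical axis) in each of the 6 tumors, by genotype, with a point for each tumor and bars for the mean and SD. The JAM-A-/- points lie wholly above the JAM-A+/+ points for Plk2, Perp and Sesn1 and overlap them for the other 5 genes.

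Plk2, a polo-like kinase that acts on centrioles and at the entry into S phase and is induced by p53 after damage and by growth factors, had the largest difference of the 8 targets. It was at 9.08, 9.78 and 9.96 in JAM-A-/- tumors 5333, 5346 and 5347 and at 8.32, 8.71 and 8.84 in JAM-A+/+ tumors 5369, 5370 and 5393. The lowest JAM-A-/- tumor thus stood above the highest JAM-A+/+ tumor. The means were 9.61 ± 0.46 (SD, n = 3) and 8.62 ± 0.27 (SD, n = 3), a difference of 0.98 (SE 0.25, 95% interval 0.41 to 1.56) or 1.98-fold. Relative to the median of all genes the Plk2 difference was 0.89. The adjusted p of limma was 0.296. Plk2 met the criteria under each normalization, test and filter that was tried and without any 1 tumor, with differences of 0.81 to 1.25.

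Perp, a membrane protein that p53 induces during apoptosis and that also sits in desmosomes, the spot junctions of epithelia, was the other target that met the criteria. The JAM-A-/- tumors had Perp levels of 10.3, 10.79 and 10.47, against 9.82, 10.03 and 10.15 in the JAM-A+/+ tumors. The groups did not overlap, although tumors 5333 and 5393 came close to each other. The means of 10.52 ± 0.25 (SD, n = 3) and 10 ± 0.17 (SD, n = 3) differed by 0.52 (SE 0.16, 95% interval 0.15 to 0.89), a fold of 1.43, and the adjusted p of limma was 0.367. Without any 1 tumor the Perp difference was 0.385 to 0.63 and the criteria were still met. After quantile normalization it was 0.31, below the fold of 1.3, whether over all probe sets or over the annotated ones.

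The sestrins restrain mTORC1 signaling and protect against oxidative stress, and both measured members were between the called targets and the rest. Sesn1, which answers to p53 and FOXO factors, was at 7.88, 7.9 and 8.14 in the JAM-A-/- tumors and at 7.47, 7.74 and 7.85 in the JAM-A+/+ tumors. The groups were adjacent without overlap, and the difference was 0.29 (SE 0.14, 95% interval -0.05 to 0.62, limma adjusted p = 0.504), so that Sesn1 missed the criteria. Sesn2, which is also induced by ATF4 in the stress response to amino acid shortage, was at 7.33, 7.89 and 7.68 against 7.43, 7.29 and 7.47. Tumor 5333 lay among the JAM-A+/+ tumors, while 5346 and 5347 lay above them. The Sesn2 difference was 0.24 (SE 0.16, 95% interval -0.14 to 0.61, limma adjusted p = 0.601). Without tumor 5333 it was 0.39 and met the criteria, as it did with tumors weighted by their quality (0.40).

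Mdm2 and Ccng1 act back on p53. Mdm2, the ligase that marks p53 for degradation, was at 8.77, 9.02 and 9.11 in the JAM-A-/- tumors and at 8.75, 8.75 and 8.88 in the JAM-A+/+ tumors. Its difference of 0.17 (SE 0.13, 95% interval -0.13 to 0.47, limma adjusted p = 0.632) was 0.08 relative to the median of all genes. Ccng1, cyclin G1, which brings a phosphatase to Mdm2, was at 11.14, 11.31 and 11.49 against 11.32, 11.12 and 10.89. The tumors of both genotypes were interleaved, and the Ccng1 difference was 0.20 (SE 0.15, 95% interval -0.16 to 0.56, limma adjusted p = 0.638). After quantile normalization over annotated probe sets it was 0.01. The 2 feedback genes were among the 3 measured targets with a half-site in the printed promoter, and neither met the criteria. Perp and Zmat3 had no matched promoter, and a relation between promoter letters and differences was not tested.

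Zmat3, a zinc finger protein that binds RNA and steers splicing and mRNA stability, was at 6.76, 7.31 and 6.87 in the JAM-A-/- tumors and at 6.58, 6.99 and 6.85 in the JAM-A+/+ tumors, a difference of 0.17 (SE 0.18, 95% interval -0.25 to 0.59, limma adjusted p = 0.741). Only tumor 5346 lay above the JAM-A+/+ range. Btg2, an antiproliferative factor that recruits the CCR4-NOT deadenylase and is also an early response gene, was at 8.16, 7.95 and 8.2 against 7.81, 8 and 8.33. Its difference of 0.06 (SE 0.16, 95% interval -0.31 to 0.43, limma adjusted p = 0.914) was the smallest of the 8, was -0.03 relative to all genes, and was -0.06 after quantile normalization over annotated probe sets. Btg2 shares chromosome 1 with the deleted F11r, with 249 measured genes between them. Plk2 and Btg2, the pair with the cyclic AMP response element, thus stood at opposite ends of the differences.

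**Figure D2:**
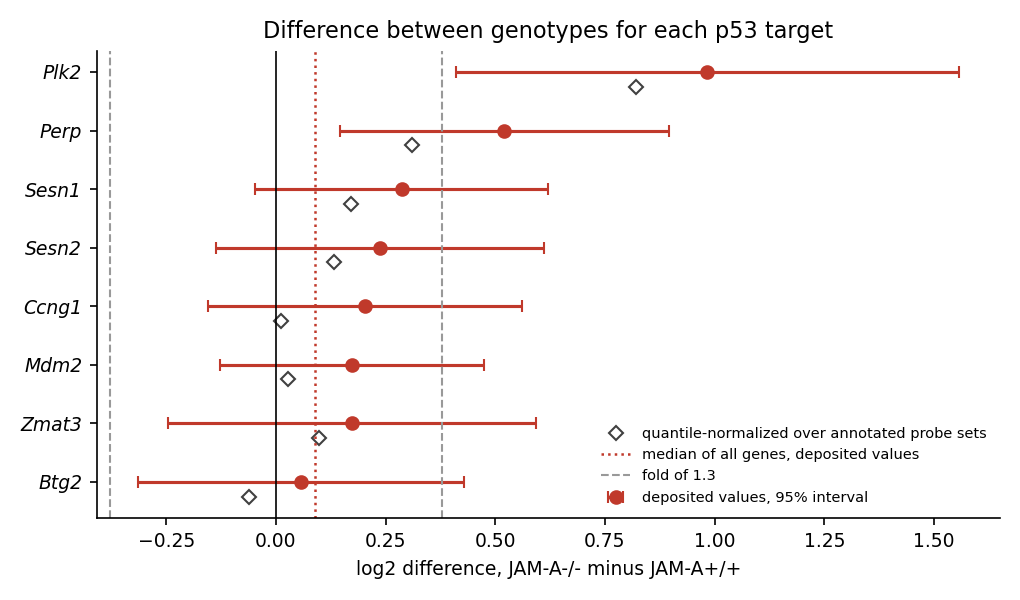
Difference in log2 level, JAM-A-/- minus JAM-A+/+, of the 8 measured p53 targets with 95% intervals from limma, beside the median of all genes (dotted line, 0.09). The intervals of Plk2 and Perp lie above 0, and those of the other 6 genes include it.

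The targets did not move evenly over the tumors. Each gene was set against its own average over the 6 tumors, and the median of these deviations over the 8 genes was taken. The JAM-A-/- tumors 5346 and 5347 stood at 0.26 and 0.22, and 5333 at -0.05. The JAM-A+/+ tumor 5369 stood lowest at -0.29, with 5370 at -0.11 and 5393 at -0.04. Tumors 5333 and 5393 of opposite genotype were therefore close together, and the tumors farthest from 0 were 5346, 5347 and 5369. Tumor 5347 held the highest value of 4 of the 8 targets and 5346 of 3, and 5369 held the lowest value of 6. The same medians over all genes had a smaller range, from -0.09 in 5369 to 0.13 in 5347, and the spread of values within an array (interquartile range) was also smallest in 5369, at 3.27, and largest in 5347, at 3.74. Whether this general difference between arrays has a part in the targets' differences was not tested, except by the normalizations.

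**Figure D3:**
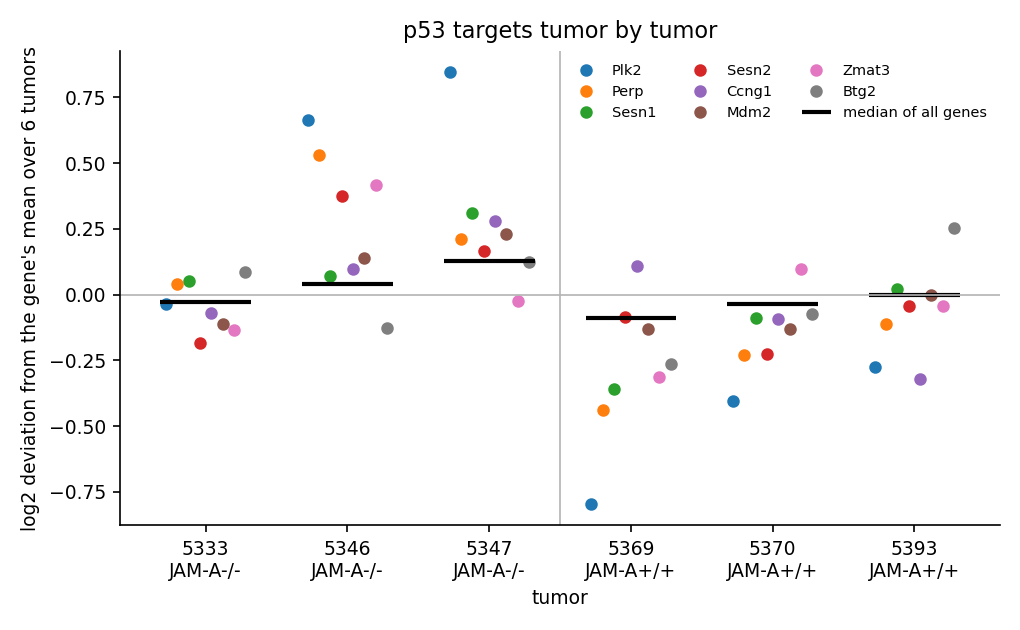
Deviation of each of the 8 p53 targets from its own mean over the 6 tumors (log2, vertical axis) in each tumor, with a black bar for the median of all genes in that tumor. Tumors 5346 and 5347 hold most of the high points and tumor 5369 most of the low ones. The medians of the points of 5333 and 5393 lie near 0, with those of 5393 ranging from -0.32 (Ccng1) to 0.255 (Btg2).

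The wider p53 pathway was read from lists by role, of which 59 of 64 genes were measured. Of these, 4 met the criteria as higher and 0 as lower, against 4.73% and 0.592% of all genes. The median difference of the 59 was 0.10, close to the 0.09 of all genes. After quantile normalization over annotated probe sets the median was -0.01. Then 2 of the 59 met the criteria, 1 higher and 1 lower, against 1.8% and 1.52% of all genes. Without 1 tumor the share of all genes called higher ran from 2.52% (5369 left out) to 10.1% (5333 left out). The counts in the lists that follow, markers included, stand beside these shares. Regulators upstream of p53 (kinases, ligases and cofactors) had a median of -0.02 over 21 genes, and none met the criteria as deposited, with 1 without tumor 5393 and up to 2 under other scalings. Their sign rested on the scaling, since centering on array medians gave 0.04 and centering on named genes -0.10. The smallest p-values belonged to Cdkn2a, whose product Arf restrains Mdm2, with a difference of 0.34 (SE 0.11, limma adjusted p = 0.386), and to Ppm1d, a phosphatase that switches off p53 signaling, with 0.37 (SE 0.16, limma adjusted p = 0.46). Cdkn2a was at 6.41, 6.27 and 6.38 in the JAM-A-/- tumors and at 6.09, 5.96 and 6 in the JAM-A+/+ tumors, without overlap but below the fold of 1.3.

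Among 11 measured targets in cell cycle arrest and DNA repair, 2 met the criteria and the median was 0.16. Gadd45a, a stress sensor in arrest and repair, was at 9.29, 9.13 and 9.74 in the JAM-A-/- tumors and at 8.84, 9.02 and 8.93 in the JAM-A+/+ tumors, a difference of 0.46 (SE 0.17, limma adjusted p = 0.42). Gtse1, a microtubule-bound protein that carries p53 out of the nucleus and whose level follows the cell cycle, differed by 0.43 (SE 0.17, limma adjusted p = 0.44). Neither was firm: Gadd45a met the criteria in 3 of the 6 fits without 1 tumor, failing without 5347 (0.28), 5369 or 5393, and Gtse1 met them in 1 of the 6, that without 5347. Without tumor 5369, which was the lowest for 6 of the 8 members, no gene of this list met the criteria.

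None of the 15 measured apoptosis genes met the criteria with all tumors and the deposited values. Without tumor 5333, when 10.1% of all genes were called higher, there were 4 (Ei24, Bid, Phlda3 and Shisa5, named after their values were seen). There was 1 without 5346, without 5370, without 5393 or with tumors weighted by quality. The median of the 15 genes was 0.14, and after quantile normalization over annotated probe sets it was -0.0006. The genes with the smallest p-values were Aen, an apoptosis-enhancing nuclease, with a difference of 0.30 (SE 0.13, limma adjusted p = 0.461), and Trp53inp1, a nuclear cofactor of p53 that also acts in autophagy, with 0.30 (SE 0.14, limma adjusted p = 0.481).

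Metabolic and other targets had the highest median of the 4 roles, 0.26 over 12 genes, or 0.14 after quantile normalization over annotated probe sets and 0.16 without 5346 or without 5347. With all tumors 2 met the criteria, with 4 without 5333 and 1 without 5346, 5347, 5369 or 5393. Ddit4 (REDD1), an inhibitor of mTORC1 that hypoxia, glucocorticoids and ATF4 also induce, was at 9.8, 10.08 and 9.99 in the JAM-A-/- tumors and at 8.59, 8.98 and 9.03 in the JAM-A+/+ tumors. Its lowest JAM-A-/- value lay well above its highest JAM-A+/+ value. The difference was 1.09 (SE 0.16, limma adjusted p = 0.198), a fold of 2.13, and Ddit4 met the criteria without any 1 tumor (0.95 to 1.17) and under each normalization (0.91 at the lowest). Ak1, an adenylate kinase, differed by 0.48 (SE 0.20, limma adjusted p = 0.449) and met them in 2 of the 6 fits without 1 tumor, failing without 5346, 5347, 5369 or 5393 (0.38 at the lowest). Ddit4 was the 1 pathway gene outside the 8 members whose call, like that of Plk2, held in every fit.

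Relatives of the members in the same gene families were read to see whether a difference was shared by a family. Mdm4, Trp63 and Trp73 are in this list and were also counted among the upstream regulators. Of 17 measured relatives, 1 met the criteria, with a median of 0.18, and 3 met them without 5333 or without 5393 and 2 without 5369 or without 5370. The 1 was Cdkn1c (p57), a relative of p21 that inhibits cyclin-dependent kinases, at 8.21, 8.75 and 8.49 in the JAM-A-/- tumors and at 7.85, 7.58 and 7.93 in the JAM-A+/+ tumors. The difference was 0.70 (SE 0.17, limma adjusted p = 0.28), a fold of 1.62, and it met the criteria without any 1 tumor. The other polo-like kinases, named after their values were seen, differed by 0.60 for Plk1, 0.27 for Plk3 and 0.18 for Plk4, beside 0.98 for Plk2. None of the 3 met the criteria with all tumors, but Plk1 met them without 5370 or without 5393, after centering on array medians and without the dimmest probe sets, and without 1 tumor its difference ran from 0.26 to 0.80. The third sestrin, Sesn3, differed by 0.11 and cyclin G2, Ccng2, by 0.28, beside 0.29 for Sesn1 and 0.20 for Ccng1. Relatives of Btg2 were also named after their values were seen. Btg1 differed by 0.36, Tob1 by 0.41 and Tob2 by -0.14, beside 0.06 for Btg2. None of these relatives met the criteria with all tumors. Btg1 met them without 5333 or with tumors weighted by quality, and Tob1 without 5333, without 5393 or after centering on array medians.

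Because Plk2, Btg2, Sesn2 and Perp also belong to other programs, the genes of those programs were counted. Of 16 immediate early genes, which respond to growth factors and to handling of tissue, 2 met the criteria with a median of 0.23. The count was 6 without 5333 (median 0.35) or with tumors weighted by quality, 3 without 5393, 1 without any 1 of the other tumors (median 0.12 without 5369) and 0 after either quantile normalization. Over all genes, 10.1% were called higher without 5333 and 6.57% with tumors weighted by quality. Myc was at 9.88, 9.98 and 9.94 in the JAM-A-/- tumors and at 9.38, 9.61 and 9.37 in the JAM-A+/+ tumors, a difference of 0.48 (SE 0.12, limma adjusted p = 0.29) that met the criteria without any 1 tumor. Zfp36, which destabilizes AU-rich mRNAs, differed by 0.43 (SE 0.16, limma adjusted p = 0.422) and failed without 5346, 5347, 5369 or 5370 (0.31 at the lowest). Btg2, an early response gene itself, stayed at 0.06.

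Of 8 genes of the ATF4 response to amino acid and endoplasmic reticulum stress, 2 met the criteria and the median was 0.28. The count was 3 without 5333, without 5393, with tumors weighted by quality or after centering on array medians. It was 1 without 5346 or after centering on named genes, and 0 without 5369 or after either quantile normalization. Trib3, a pseudokinase induced in this response, was at 8.41, 8.62 and 8.46 in the JAM-A-/- tumors and at 7.85, 8.17 and 8.11 in the JAM-A+/+ tumors, a difference of 0.45 (SE 0.13, limma adjusted p = 0.343) that failed without 5369 (0.36). Psat1, an enzyme of serine synthesis, differed by 0.64 (SE 0.23, limma adjusted p = 0.41) and failed without 5346 or without 5369 (0.38). Sesn2 and Ddit4, both also ATF4 targets, differed by 0.24 and 1.09.

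The 9 desmosome genes had a median of 0.36, and 2 met the criteria. The median was 0.125 without 5346, 0.19 without 5370, 0.225 without 5369 and 0.18 after quantile normalization over annotated probe sets, when 5 of the 9 were above 0. The 2 genes were Dsc2, a desmosomal cadherin, with 0.41 (limma adjusted p = 0.41), and Pkp1, a plaque protein, with 0.41 (limma adjusted p = 0.444). Dsc2 failed without 5347, 5369 or 5370 (0.30 at the lowest) and Pkp1 without 5333, 5346, 5347 or 5369 (0.22 at the lowest). After quantile normalization over annotated probe sets neither met the criteria, as with Perp, and the same held for Gadd45a, Gtse1, Ak1, Myc, Zfp36, Trib3 and Psat1, while Plk2, Ddit4 and Cdkn1c kept theirs.

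**Figure D4:**
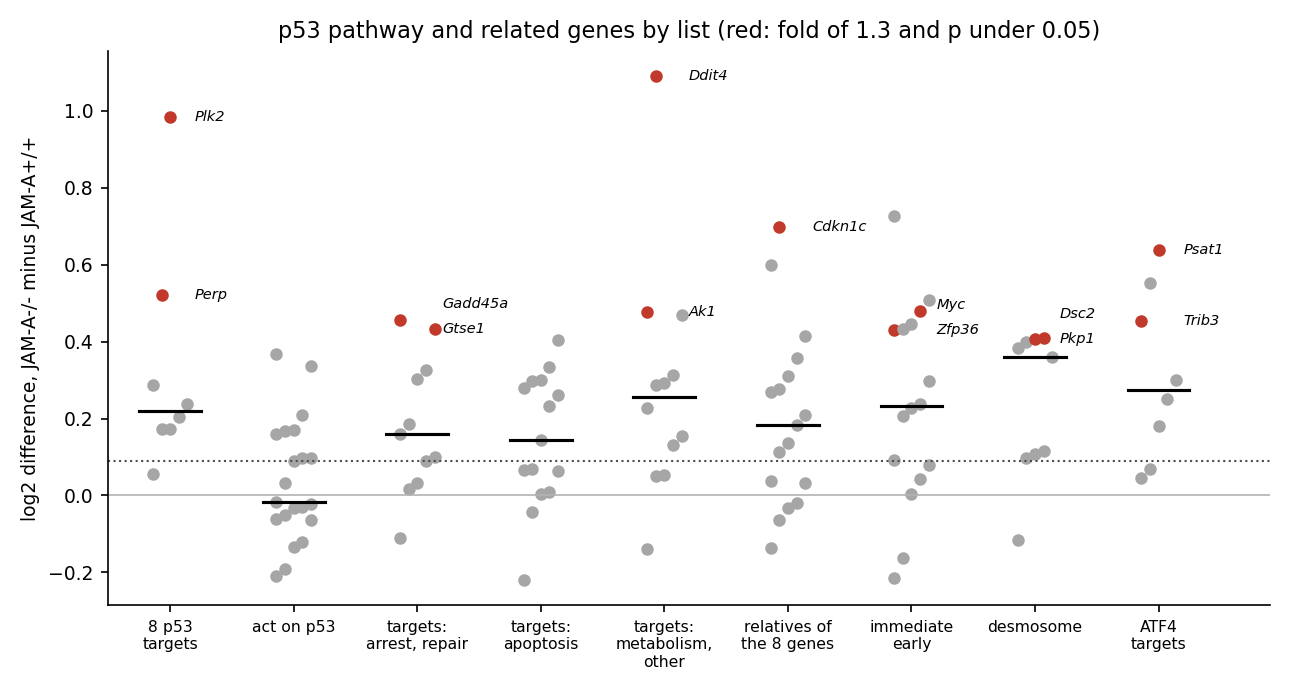
Differences in log2 level, JAM-A-/- minus JAM-A+/+, of the members and of 8 lists of p53 pathway and related genes, with a point for each gene, a black bar for each list's median and a dotted line for the median of all genes (0.09). Plk2 and Ddit4 stand apart at 0.98 and 1.09, and the list medians range from -0.02 for upstream regulators to 0.36 for desmosome genes.

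Markers of other cells of the tumor differed in places beside the targets. The median difference was 0.39 for fibroblast, 0.41 for endothelium and 0.66 for skeletal muscle markers, beside 0.22 for the 8 targets. It was 0.13 for macrophage, 0.07 for B cell, 0.01 for adipocyte and -0.03 for T cell markers. All 5 endothelium and all 5 skeletal muscle markers were above 0. After quantile normalization over annotated probe sets the fibroblast, endothelium and muscle medians were 0.20, 0.30 and 0.55, beside 0.115 for the 8 targets. Among basal epithelium markers 1 of 5 met the criteria, Acta2 with a difference of 0.90. Acta2 met them without any 1 tumor (0.79 to 0.97) and under each normalization (0.73 at the lowest). Krt5, Krt14, Krt17 and Mylk differed by 0.08, 0.01, 0.19 and -0.03. The median difference of the 5 was only 0.08, beside 0.09 for all genes. After quantile normalization over annotated probe sets it was -0.09, with 2 of the 5 above 0. The mean of the 5 ran from 8.41 to 8.71 in the JAM-A-/- tumors and from 8.03 to 8.62 in the JAM-A+/+ tumors. Among fibroblast markers 2 of 6 met them, Col1a2 having the smallest p with 0.58, and their mean ran from 10.32 to 10.86 and from 9.75 to 10.58. The count was 0 without 5346, 5347 or 5369 (Col1a2 0.33 at the lowest), 1 without 5393 and 3 without 5370. Among endothelium markers 1 of 5 met them, Pecam1 with 0.60, and their mean ran from 7.13 to 7.62 and from 6.61 to 7.31. The count was 4 without 5333, 3 without 5370 and 0 without 5346, 5347, 5369 or 5393 (Pecam1 0.365 at the lowest). Among skeletal muscle markers 1 of 5 met them, Acta1 with 1.31, and their mean ran from 7.82 to 8.77 and from 6.83 to 8.25. The count was 4 without 5333 or without 5370, 3 after centering on array medians, and 0 after either quantile normalization or without 5346, 5347, 5369 or 5393 (Acta1 0.74 at the lowest). None of 5 macrophage, 5 T cell, 4 B cell or 4 adipocyte markers met them, apart from 1 adipocyte marker that was lower without 5369. No defining marker can be placed at 0 on this scale, and the part of these cells in the differences of Plk2, Perp and the other targets was not tested.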

How the data were processed

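RNA of 6 mammary tumors was measured on Affymetrix Mouse Gene arrays, 1 per tumor. The values are log2 intensities that the authors deposited after RMA (background correction, quantile normalization and probe summary), made in Affymetrix Expression Console 1.1 per the submitters' processing notes. Why arrays normalized in this way still differ in spread is not given in the sources used here. The deposited values were used without further scaling. The number of arrays limits the precision.

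Of 35557 probe sets, the array annotation gave 21789 exactly 1 gene symbol, 1621 several, and did not list 12147. Symbols were updated by gene ID through RefSeq's gene table (21698 probe sets matched). Each gene was read from the probe set with the highest mean. Differences are JAM-A-/- minus JAM-A+/+ from limma 3.58.1 (R 4.3.3) over all probe sets, with Benjamini-Hochberg adjustment. The array test is not given in the study's methods. The fold minimum of 1.3 and unadjusted p threshold of 0.05 are those that the entries of the study's signature meet. Code was tested on simulated data.

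The members and gene lists were chosen with earlier results of these data known. Named were all members, F11r, and from each pathway list the genes meeting the criteria (4 at most, by smallest p) or else the 2 with the smallest p. Of the markers, luminal ones were named, and for other cell types the 1 with the smallest p where any met the criteria. A planned correlation of Trp53 with its targets was not run, since no probe set is listed for Trp53. Alternatives were other normalizations, centering, filters, tests, fold minimums and leaving out each tumor.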

Additional observations from a re-analysis of the deposited data

How the results depend on the processing

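None of the 8 members passed an adjusted p of 0.05 in any fit, and Plk2 met the fold and p criteria in all. The median difference of the 8 members stayed within 0.115 to 0.31, and no called difference changed sign. The count of members meeting the criteria, 2, was 1 (Plk2) after quantile normalization over all or over annotated probe sets and at a fold of at least 1.5, and 2 to 3 without 1 tumor, the third being Sesn2 without 5333. The share of all genes called higher and lower, 4.73% and 0.592%, was 1.8% and 1.52% after quantile normalization over annotated probe sets, 2.86% and 0.873% over all probe sets, and 2.3% and 1.2% after centering on named genes, so that the size of the excess of higher calls rests on the scaling. The members' median stayed 0.11 to 0.13 above that of all genes under these scalings. Without 1 tumor it stood between 0.08 (5346 left out) and 0.18 (5333 left out) above that of all genes. The count of other p53 pathway genes, 4 of 59, was 2 after quantile normalization over annotated probe sets (Ddit4 higher and, named after its value was seen, Trp53bp2 lower at -0.38), 7 after centering on array medians, and 1 after centering on named genes, by the equal-variance test, by Welch's test and at a fold of at least 1.5. It ran from 1 without 5369 to 10 without 5333, with 2 without 5347. The share of all genes called higher moved with the same tumors, at 2.52% without 5369, 10.1% without 5333 and 3.17% without 5347. The causes were not tested. No paired analysis was possible because the tumor numbers are unique to each tumor. All 8 members lay above the dimmest 40% of probe sets.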
